A study of Mus musculus with 24 samples.

Results

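The genes described here detoxify peroxides, superoxide and reactive electrophiles with the help of glutathione and thioredoxin. They were chosen by name: glutathione S-transferases of the alpha, kappa, mu, omega, pi and theta classes, glutathione peroxidases, peroxiredoxins, the superoxide dismutases, and 11 further genes, namely Gclc, Gclm, Gss, Gsr, Nqo1, Txn1, Txnrd1, Cat, Mgst1, Nfe2l2 and Keap1. The array held 37 such genes on 50 probe sets, out of 8251 genes on the 10833 probe sets that carry 1 gene symbol. The array held 12422 probe sets in all, controls aside. Each gene was represented by its brightest probe set over the 24 arrays. Tests were limited to probe sets brighter than the median of the array on 2 or more arrays, which 33 of the 37 genes were. Keap1, Gpx5, Gsta1 and Gstm6 did not pass and have no test.

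Glutathione is a short peptide made by glutamate cysteine ligase (Gclc and Gclm) and glutathione synthetase (Gss), and it is kept reduced by glutathione reductase (Gsr). Glutathione peroxidases and peroxiredoxins use its thiol, or that of thioredoxin, to reduce peroxides, and glutathione transferases attach glutathione to electrophiles such as the products of lipid peroxidation. Many of these genes are targets of the transcription factor Nrf2 (Nfe2l2), which its partner Keap1 holds back until oxidants or electrophiles modify Keap1. Lung cells meet inhaled oxygen and xenobiotics directly and express many members of this system.

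The samples were 22 arrays of 11 mouse lung tumour cell lines and 2 arrays of control cells. The lines (A2B1, A2C12, B3, betaD5, betaD10, cRAF_cMYC, gammaA3, gammaA7, gammaB8, gammaD1 and gammaD12) were grown from lung tumours of 8-month-old mice with both c-Myc and c-Raf transgenes, and were kept in medium with fetal calf serum for up to 50 passages. The sources used here do not name the promoters of the transgenes or the number of donor mice. Control cells were alveolar type II cells of healthy mice, isolated by trypsin digestion of the perfused lung and a Percoll gradient. Line gammaB8 is named gammaA8 in another of its labels. Of the lines, 5 had 3 arrays, 1 had 2 and 5 had 1. Lines with 3 arrays had 2 arrays numbered as replicates and 1 unnumbered array, and A2B1 had 1 of each. Since nothing states that repeat arrays are separate cultures, p-values measure only the spread between these samples, which may be technical. The labels describe long culture for the lines and only isolation for the control, so transformation and culture cannot be told apart.

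Several properties of the arrays touch every value below. The control cells went only partly with their label. The summed signal of 8 type II cell markers was 1589 on control 1 and 31020 on control 2, against 96.1 to 162 in the lines, where the surfactant protein gene Sftpc averaged 23.8. The summed signal of 13 macrophage markers was 44880 and 25990 on controls 1 and 2 and 130.2 to 239 in the lines. There the bright markers Chil3, Ctss and Lyz2 averaged 14.9, 12.8 and 5.04. Of 11 tested macrophage markers 11 were called lower, where 21.4% of all tested probe sets were. Markers that lie under the medians of the tumour arrays (53.17 to 75.45) can pass the filter only through the 2 controls. Such markers had to be lower, so this count lends no support. Summed markers of club cells gave 10090 and 24400 on the controls and 80.7 to 12370 in the lines, and those of lymphocytes gave 2198 and 5790 against 91.9 to 164. Epithelial markers gave 12900 and 8213 against 305 to 3260, with 8 of 8 lower. Summed fibroblast markers gave 4720 and 2434 against 6186 to 26220. Of 7 tested fibroblast markers 2, Col1a1 and Col1a2, were called higher in the lines and 2 were called lower. Actin probe sets at the 3' end gave 1.03 to 1.32 times the signal of those at the 5' end on tumour arrays, and 1.47 and 1.64 times on controls 1 and 2. The controls differed from each other by 2-fold or more in 10 of the 33 genes (30.3%) and in 12.4% of all tested probe sets. Their part in the differences between lines and control was not tested, and in such bulk RNA fewer cells of a type and less RNA per cell cannot be told apart. Arrays with the same replicate number in lines cRAF_cMYC and gammaA7 resembled each other (median absolute log2 differences of 0.122 and 0.146) more than the 2 numbered arrays within cRAF_cMYC (0.239) or gammaA7 (0.241), which goes against their labels. Comparisons that use the spread within lines are therefore also given without both lines. Replicate 1 of A2B1 stood apart from the other tumour arrays: it lay 0.412 from the nearest of them, betaD10, and 0.423 from the other array of its own line, while the other 21 tumour arrays lay 0.102 to 0.244 from their nearest.

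Compared with control, the tumour lines had lower signals of catalase, of 8 of 13 tested glutathione transferases and of 3 of 5 tested glutathione peroxidases, and higher signals of peroxiredoxin 2 and glutathione peroxidase 7. Differences are given as log2(signal + 32), which compresses values near the floor, from limma on the 11 line means and the 2 control arrays. Calls needed both a 2-fold difference and a p under 0.05 after Benjamini-Hochberg adjustment over all 7670 tested probe sets. Of the 33 genes, 2 were called higher (6.06%) where 16.5% of all tested probe sets were, and 14 were called lower (42.4%) where 21.4% of all tested probe sets were. In either direction 37.8% of all tested probe sets were called. The split depended on the scaling: as deposited 1265 probe sets were called higher and 1638 lower, after quantile normalization 1671 and 1370, and after centring on array medians 2421 and 923. The 33 genes split into 2 higher and 16 lower after quantile normalization and into 7 and 12 after centring. The median log2 difference of the 33 genes was -0.92, beside -0.05 for all tested probe sets. Every line lay below both control arrays for 15 of the 33 genes (29.7% of all tested probe sets) and above both for 5 (25.4%). Gpx2, Gsta2, Gsta3 and Gstt2 passed the filter only through the 2 control arrays, so they had to be lower in the lines. Among the other 29 genes 10 were called lower, 5 of them transferases and 2 of them peroxidases. The share of all probe sets left after the same removal is not given, so 10 of 29 has no background here. Under a stricter filter, above the array median on 6 or more arrays, 8 of 27 genes and 1058 of 6730 probe sets were called lower. Gpx7, called higher, passed the filter only through the tumour arrays.

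**Figure D1:**
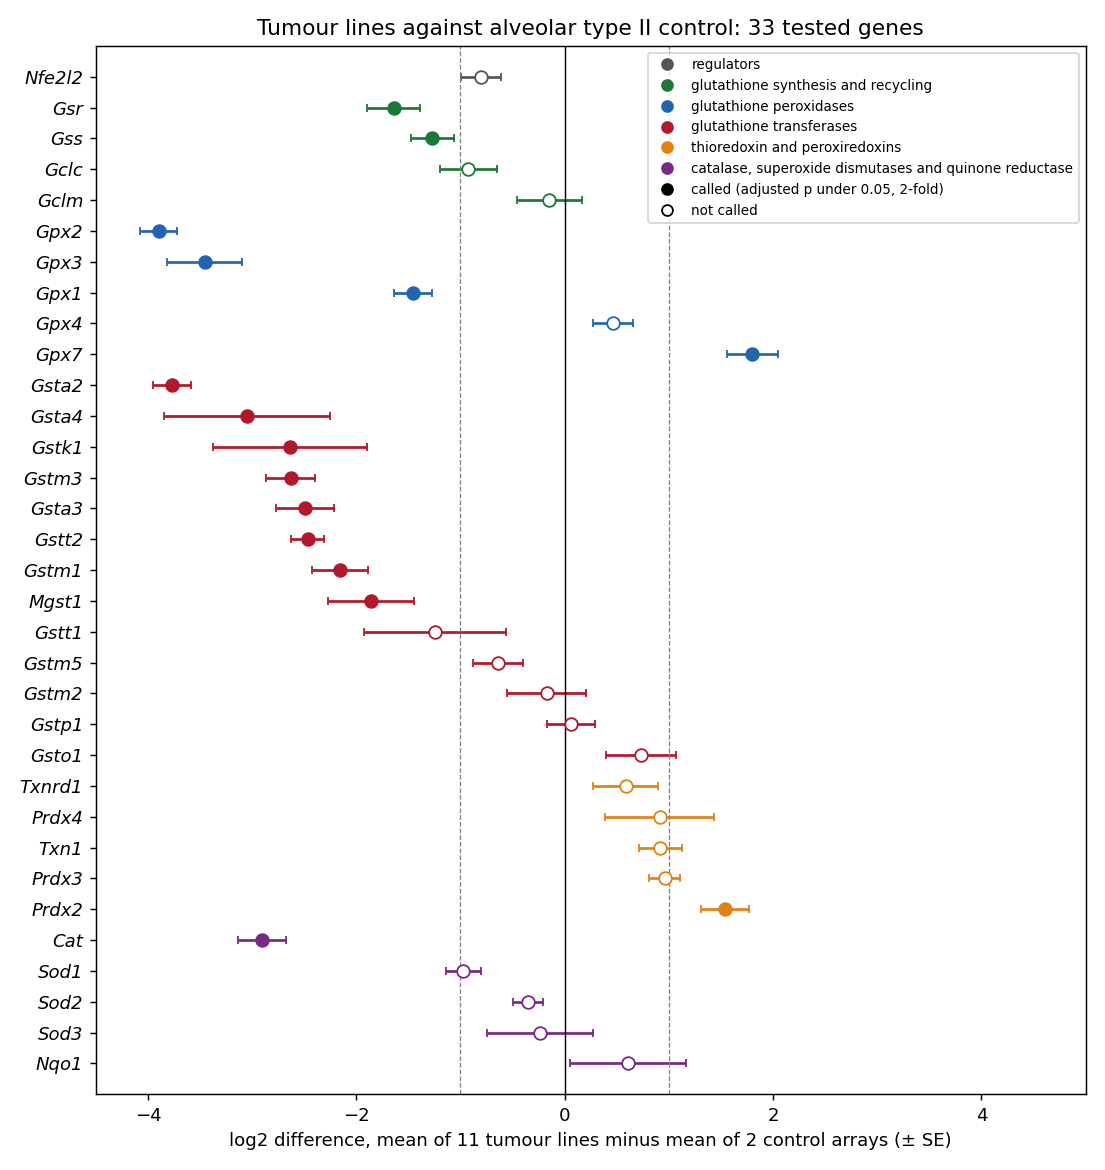
Log2 difference between the mean of 11 tumour lines and the mean of 2 control arrays for each of 33 genes (x axis, bars show the SE), ordered and coloured by role; filled points were called and dashed lines mark 2-fold. The transferases (red) reach from Gsta2 at -3.77 to Gsto1 at 0.73, while the thioredoxin and peroxiredoxin genes (orange) lie between 0.58 and 1.54.

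The regulator Nfe2l2 gave signals of 1116 and 1139 on controls 1 and 2 and 643 ± 114 (SD, n = 11 lines) in the tumour lines. All 11 lines lay below both controls, from 485 in gammaB8 to 761 in cRAF_cMYC. Its log2 difference of -0.81 (SE 0.19, limma adjusted p = 0.00178) was under 2-fold. Keap1, its inhibitor, lay near the floor everywhere: its probe set gave 9.25 and 18.7 on the controls and 3.62 to 22.0 in the lines, so nothing can be read about its level.

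The genes that make and recycle glutathione were lower or not called. Glutathione reductase (Gsr), which turns oxidised glutathione back with NADPH, gave 2970 on control 1, 1060 on control 2 and 558 ± 71.6 in the lines (log2 difference -1.64, SE 0.26, adjusted p = 4.5e-05). Both controls lay above every line, but far from each other, and without control 1 the difference was -0.91 and not called. Glutathione synthetase (Gss) fell from 448 and 594 to 202 ± 43.4 (-1.27, SE 0.21, adjusted p = 7.54e-05). Its other tested probe set gave -1.35, from 126.2 and 119.3 on the controls to 29.78 ± 10.55 in the lines. That lies under the tumour array medians of 53.17 to 75.45. The probe set thus probably passed the filter through the controls alone and lends the fall no support. The catalytic ligase subunit Gclc gave 1210 and 827 on the controls and 333 to 805 in the lines, all 11 below both controls. Its log2 difference of -0.92 (SE 0.27, adjusted p = 0.00732) missed the 2-fold threshold, and it depended on the arrays: it was called without control 2 (-1.19) and on numbered arrays only (-1.29), but missed the adjusted p as well without control 1 (-0.66, adjusted p = 0.134) and on unnumbered and single arrays only (-0.60, adjusted p = 0.148). The modifier subunit Gclm gave 711 and 293 on controls 1 and 2, and 9 of 11 lines lay between them. Its log2 difference of -0.15 (SE 0.31, adjusted p = 0.695) turned to 0.45 without control 1.

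Of the 6 glutathione peroxidases on the array 5 were tested, and they went in opposite directions. Gpx2, an enzyme known best from the lining of the gut and also present in the airways, gave 1069 and 982 on the control arrays and 14.9 to 60.6 on the tumour arrays. No tumour array came near the controls, and the log2 difference was -3.90 (SE 0.18, adjusted p = 7.31e-11). Gpx2 passed the filter only through the 2 control arrays, so it had to be lower and this p lends the fall no support. Gpx3, the secreted peroxidase of plasma and of the fluid lining the airways, gave 400.2 and 955 on the controls and a median of 26.0 over the lines. It fell (-3.45, SE 0.36, adjusted p = 8.86e-07), but the unnumbered array of cRAF_cMYC gave 454, within the range of the controls, where replicates 1 and 2 of that line gave 9.42 and 22.2. Gpx1, the most widespread cytosolic form, fell from 503 and 572 to 179.5 ± 39.7 (-1.46, SE 0.18, adjusted p = 5.7e-06). Gpx7, an enzyme of the endoplasmic reticulum that reduces peroxide formed as proteins fold, went the other way. It gave 38.8 and 32.3 on the controls and 106 to 404 on the 22 tumour arrays, with no overlap, and rose by 1.80 (SE 0.25, adjusted p = 1.4e-05). Gpx7 passed the filter only through the tumour arrays, where it was high, so this p and the lack of overlap lend the rise no support. Gpx4, which reduces lipid peroxides in membranes and protects cells from ferroptosis, gave 554 and 579 on the controls and 654 to 1282 in the lines. All 11 lines lay above both controls, at a log2 difference of 0.46 (SE 0.19, adjusted p = 0.0423) that was under 2-fold. Gpx5, known from the epididymis, was not tested, with 47.1 and 48.3 on the controls and 3.07 to 18.5 in the lines.

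Of 15 glutathione transferases on the array 13 were tested, 8 of which were called lower and 5 not called, at a median log2 difference of -2.15. Among the 10 that did not pass the filter through the controls alone, 5 were called lower, a count without a background of probe sets filtered alike. The alpha class enzymes, which conjugate products of lipid peroxidation, were low in most lines. Gsta2 fell from 666 and 491 to 13.2 ± 7.64 (-3.77, SE 0.18, adjusted p = 1.68e-10) and Gsta3 from 169 and 334 to 17.8 ± 13.2 (-2.49, SE 0.27, adjusted p = 1.54e-06). Both passed the filter only through the 2 control arrays, so they had to be lower and these p-values lend the falls no support. Gsta4, the form most specialised for 4-hydroxynonenal, gave 664 and 673 on the controls and as little as 4.05 in gammaA3. It was called lower (-3.05, SE 0.79, adjusted p = 0.00335), yet A2B1 gave 899.7 on replicate 1 and 562 on the unnumbered array, at the level of the controls. The unnumbered array of cRAF_cMYC gave 452, while its replicates 1 and 2 gave 4.40 and 79.9. Gsta1 was near the floor on all arrays and not tested.

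The mu class genes lie side by side in the mouse genome and are similar in sequence, and their probe sets may not be specific. The brightest probe sets of Gstm1, Gstm3 and Gstm5 are of a kind that Affymetrix marks as shared by a gene family, so levels of single members are uncertain. Gstm1 fell from 6221 and 6649 to 1510 ± 454 (-2.15, SE 0.27, adjusted p = 5.27e-06), all 11 lines below both controls, and its other probe set fell too (-1.48). Gstm3 fell from 1012 and 1477 to 181 ± 45.2 (-2.63, SE 0.23, adjusted p = 1.75e-07), but its other probe set gave only -0.54 and was not called. Gstm2 was not called by its brightest probe set (533 and 2069 on the controls, 674 to 1569 in the lines, log2 difference -0.17, SE 0.38), while its other probe set fell by 2.00 (SE 0.18). For Gstm5 the probe sets went in opposite directions. The brightest gave -0.64 (SE 0.24, adjusted p = 0.0297) and was not called, a 2nd was called lower (-2.13, SE 0.28) and a 3rd was called higher (1.04, SE 0.25). No direction can be given for Gstm2 or Gstm5. Gstm6 gave 4.84 on control 1, 77.2 on control 2 and 1.01 to 14.3 in the lines, and was not tested.

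**Figure D2:**
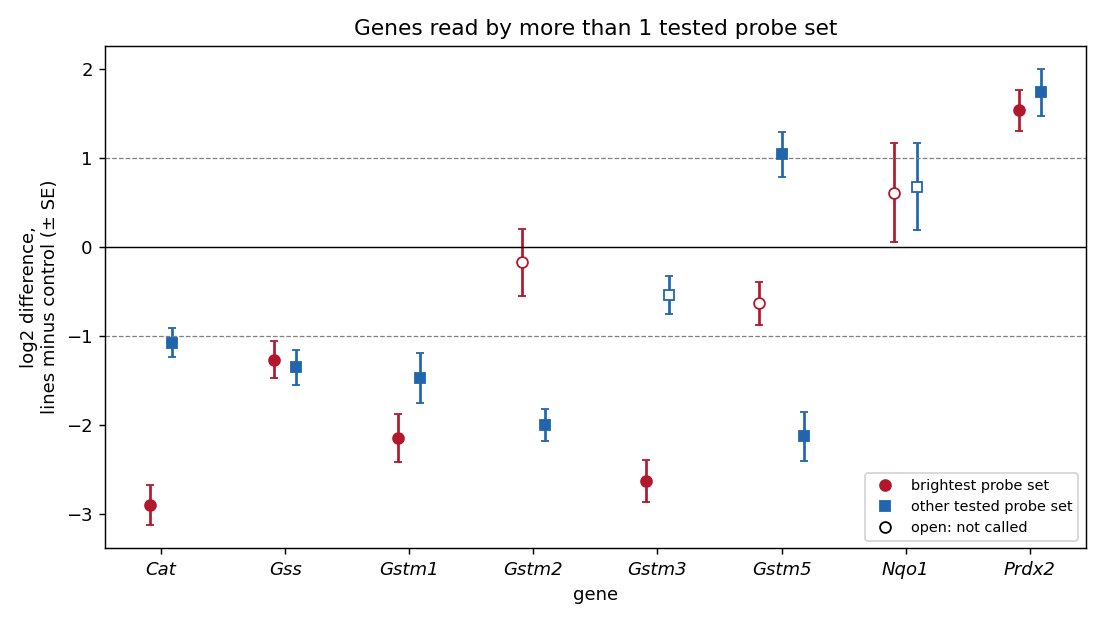
Log2 difference between lines and control (y axis, bars show the SE) for the 8 genes with more than 1 tested probe set; circles mark the brightest probe set, open symbols were not called and dashed lines mark 2-fold. Gss, Prdx2 and Nqo1 probe sets lie close together, whereas those of Gstm5 span -2.13 to 1.04.

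The remaining transferases differed from one another. Gstt2, a theta class enzyme, fell from 162 and 229.7 to 9.25 ± 5.04 (-2.46, SE 0.16, adjusted p = 5.1e-09). It passed the filter only through the 2 control arrays, so it had to be lower and its p lends the fall no support. For Gstt1 the controls gave 18 and 672 with 10 of 11 lines between them, and the log2 difference of -1.24 (SE 0.68, adjusted p = 0.122) turned to 0.67 without control 2. Mgst1, a membrane-bound transferase that also acts as a peroxidase, fell from 2016 and 2240 to a median of 572 over the lines (-1.86, SE 0.41, adjusted p = 0.00101). Replicate 1 of A2B1 gave 3058, above both controls, while the unnumbered array of that line gave 875. Without that replicate the difference was -1.94 (adjusted p = 4.99e-05). On numbered arrays only, Mgst1 was not called (-1.76, adjusted p = 0.0763). Gstk1, the mitochondrial and peroxisomal kappa class enzyme, was called lower (-2.64, SE 0.74, adjusted p = 0.00563), a call lost without control 2 (-1.85). The pi class gene Gstp1 gave 3053 and 3066 on the controls and 2286 to 4705 in the lines, 6 of them above and 5 below both controls (0.06, SE 0.23, adjusted p = 0.834). After quantile normalization its difference was -0.37. Gsto1, an omega class enzyme that reduces dehydroascorbate, lay above both controls in 9 of 11 lines (0.73, SE 0.33, adjusted p = 0.0664) and was not called.

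Thioredoxin, its reductase Txnrd1 and peroxiredoxins 2, 3 and 4 had log2 differences above 0. Of these 5 genes 1 was called higher and 4 were not called, and the median log2 difference was 0.92. Peroxiredoxin 2 (Prdx2), a cytosolic peroxidase reduced by thioredoxin, gave 1448 and 1293 on the controls and 2381 to 5853 on the tumour arrays, with no overlap (1.54, SE 0.23, adjusted p = 3.11e-05). Its other tested probe set rose by 1.74 (SE 0.26). Mitochondrial peroxiredoxin 3 (Prdx3) gave 837 and 657 on the controls and 1337 to 1914 in the lines, again with all 11 lines above both controls, at 0.96 (SE 0.15, adjusted p = 4.16e-05), just under 2-fold. Thioredoxin (Txn1) gave 7017 and 3482 on the controls and 7398 to 11080 in the lines (0.92, SE 0.21, adjusted p = 0.00111). It depended on the scaling and on the control kept: the difference was 0.19 after quantile normalization, 0.42 without control 2 and 1.42, past both thresholds, without control 1. Thioredoxin reductase (Txnrd1), which recharges thioredoxin with NADPH, gave 1793 and 814 on the controls and 1281 to 3544 in the lines (0.58, SE 0.31, adjusted p = 0.115). The difference was 0.031 without control 2 and 1.14, and called, without control 1.

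Peroxiredoxin 4 (Prdx4), which works in the endoplasmic reticulum, was low on 2 of the 3 arrays of line gammaB8. The controls gave 366 and 371, and the 19 arrays of the other 10 lines gave 559.6 to 1176, all above both controls. In gammaB8 the unnumbered array gave 519.7, but replicates 1 and 2 gave 68.4 and 26.6. Over all lines the log2 difference of 0.91 (SE 0.52, adjusted p = 0.135) was not called. Without gammaB8 it was 1.15 (adjusted p = 0.000224) and was called. The F-test among lines did not call Prdx4 (adjusted p = 0.0676).

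Catalase (Cat), the peroxisomal enzyme that splits hydrogen peroxide, was the only gene called lower outside the glutathione enzymes. It gave 783 and 1179 on the controls and 48.0 to 195 on the 22 tumour arrays, with no overlap, and fell by 2.90 (SE 0.23, adjusted p = 4.82e-08). Its other probe set fell by 1.08 (SE 0.16). The cytosolic superoxide dismutase Sod1 gave 1754 and 1444 on the controls and 555 to 969 in the lines, all 11 below both, at -0.97 (SE 0.17, adjusted p = 0.000116). That was just under 2-fold, and Sod1 was called after quantile normalization (adjusted p = 1.07e-05) and without control 2 (-1.11). Mitochondrial Sod2 gave 463 and 325 on the controls and 299 ± 22.8 in the lines (-0.35, SE 0.14, adjusted p = 0.0401), under 2-fold. The quinone reductase Nqo1, a widely used readout of Nrf2, gave 238 and 63.0 on controls 1 and 2 and 112 to 704 in the lines, 4 of them above both controls. Its log2 difference of 0.61 (SE 0.56, adjusted p = 0.35) turned to -0.15 without control 2 and to -0.18 on numbered arrays only. The extracellular form Sod3 is described with the comparison among lines.

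**Figure D3:**
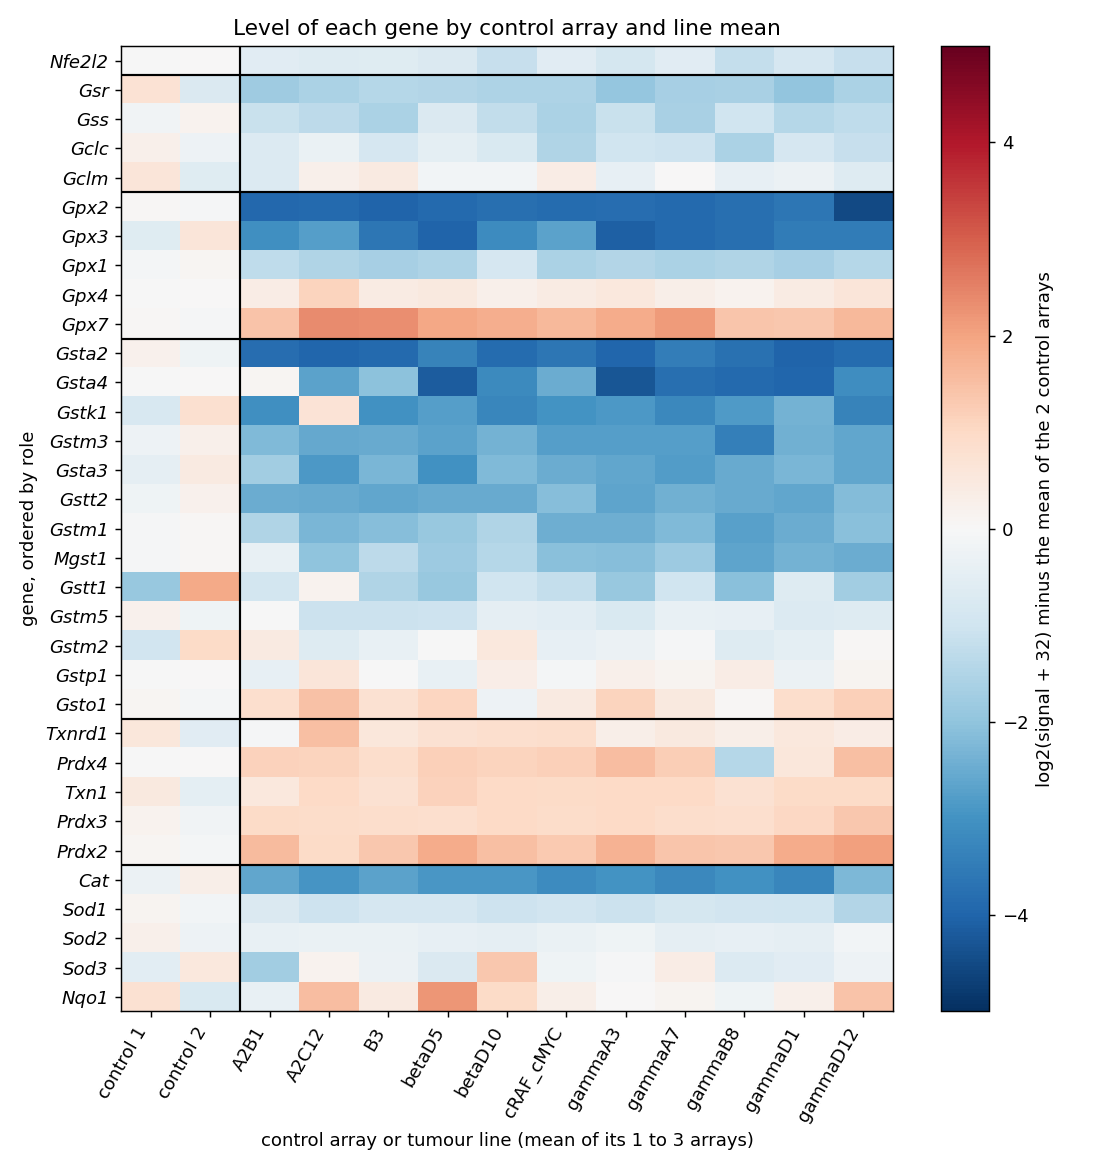
Level of each of 33 genes on the 2 control arrays and as the mean of each line's 1 to 3 arrays, as log2(signal + 32) minus the mean of both controls (colour scale, blue lower, red higher); horizontal lines part the roles. Gpx2, Gsta2 and Cat are lower in all 11 lines, where Gpx2 and Gsta2 had to be by the filter. Gstk1 is near the controls in A2C12 and Gsta4 in A2B1. Prdx4 is below both controls in gammaB8 and above both in the other 10 lines.

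Each line was then set against the same 2 control arrays. The 5 lines with 1 array are assumed to vary like the lines with repeat arrays, and lines with more arrays have a smaller SE, so counts are not to be ranked between lines. Between 12 and 18 of the 33 genes were called lower and between 2 and 5 higher. In gammaB8 18 genes were lower (20.7% of all tested probe sets were) and 2 higher (16.9%). Of 4 lines with 15 lower genes, A2C12 had a background of 22.5%, B3 of 22.4%, cRAF_cMYC of 21.2% and gammaD12 of 18.9%. Their higher genes were 5 in A2C12 (18.1% of all tested probe sets), 2 in B3 (17.4%), 2 in cRAF_cMYC (16.9%) and 4 in gammaD12 (15.6%). In 3 lines 14 genes were lower, with backgrounds of 21.7% in gammaA3, 20.9% in gammaA7 and 21.5% in gammaD1, and 3 genes were higher in each (16.6%, 16.7% and 16.2%). A2B1 and betaD10 had 13 lower genes each (17.7% and 19.0%) and 2 and 5 higher (13.6% and 15.7%). In betaD5 12 genes were lower (21.8%) and 4 higher (16.8%). In all 11 lines the share of the 33 genes called lower was above that of all tested probe sets, a count that includes the 4 genes that passed the filter only through the controls. Of the genes, 9 were called lower in every line (Cat, Gpx2, Gpx3, Gsr, Gsta2, Gsta3, Gstm1, Gstm3 and Gstt2) and 1, Gpx7, was called higher in every line. Over all tested probe sets 11.7% were called lower in every line and 6.79% higher, and of the 9 genes Gpx2, Gsta2, Gsta3 and Gstt2 had to be lower by the filter. Gpx7 passed the filter only through the tumour arrays. Prdx2 was called higher in 10 lines, Gpx1 was called lower in 10 and Mgst1 in 8. The other 9 lines held 159 calls together, and 158 when cRAF_cMYC and gammaA7 were left out of the fit. Because all contrasts share the same controls, these counts are not independent, and whether they differ between lines was not tested.

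The lines were also compared with each other by an F-test in limma over the arrays of the 11 lines, with line means fitted to all 24 arrays. It called 3 of the 33 genes (9.09%), where 3.42% of all tested probe sets were called: Gstk1, Gsto1 and Sod3. Gstk1 was all but confined to A2C12. Its arrays gave 462, 444 and 729.6 on replicate 1, replicate 2 and the unnumbered array, the controls gave 174 and 578, and the 19 arrays of the other 10 lines gave 2.90 to 37.7. The groups of arrays did not overlap (adjusted p = 7.1e-05), and A2C12 lay at the level of the controls. Gsto1 was also highest in A2C12, with 7021, 7228 and 5671 on the same arrays, and lowest in betaD10 (1998), followed by gammaB8, whose arrays gave 2443, 2439 and 2577 (adjusted p = 0.00491). Repeat arrays of gammaA7 (3352, 3279 and 3278) and of cRAF_cMYC (3406, 3337 and 2942) gave similar values and did not separate these lines.

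Sod3, the secreted superoxide dismutase that protects the extracellular matrix, ran from 112 and 73.8 on the arrays of A2B1 to 1031 on the only array of betaD10, with 257 and 559 on the controls (adjusted p = 0.0473). Its repeat arrays were uneven, with 402, 405 and 174 in B3 and 566, 327 and 669.7 in gammaA7. Of 45 settings run, main one included, the F-test called Gsto1 in 44, Gstk1 in 43 and Sod3 in 20. Gstk1 passed the filter on 5 arrays, those of A2C12 and the controls. It was therefore not tested under the stricter filter of 6 arrays, 1 of the 45 settings. Sod3 was not called when either array of A2B1 was left out. Without line A2C12, limma's F-test called 0 of the 33 genes, with 7 at an unadjusted p under 0.05, and 0.209% of all tested probe sets. Without cRAF_cMYC and gammaA7 it called 4, Gsta4 (adjusted p = 0.00467) beside the same 3, where 4.30% of all tested probe sets were called. Over the numbered arrays of 5 lines it called 14 (42.4%) where 20.7% of all tested probe sets were called. That count takes its error from replicates 1 and 2 alone, which in cRAF_cMYC and gammaA7 went against their labels.

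**Figure D4:**
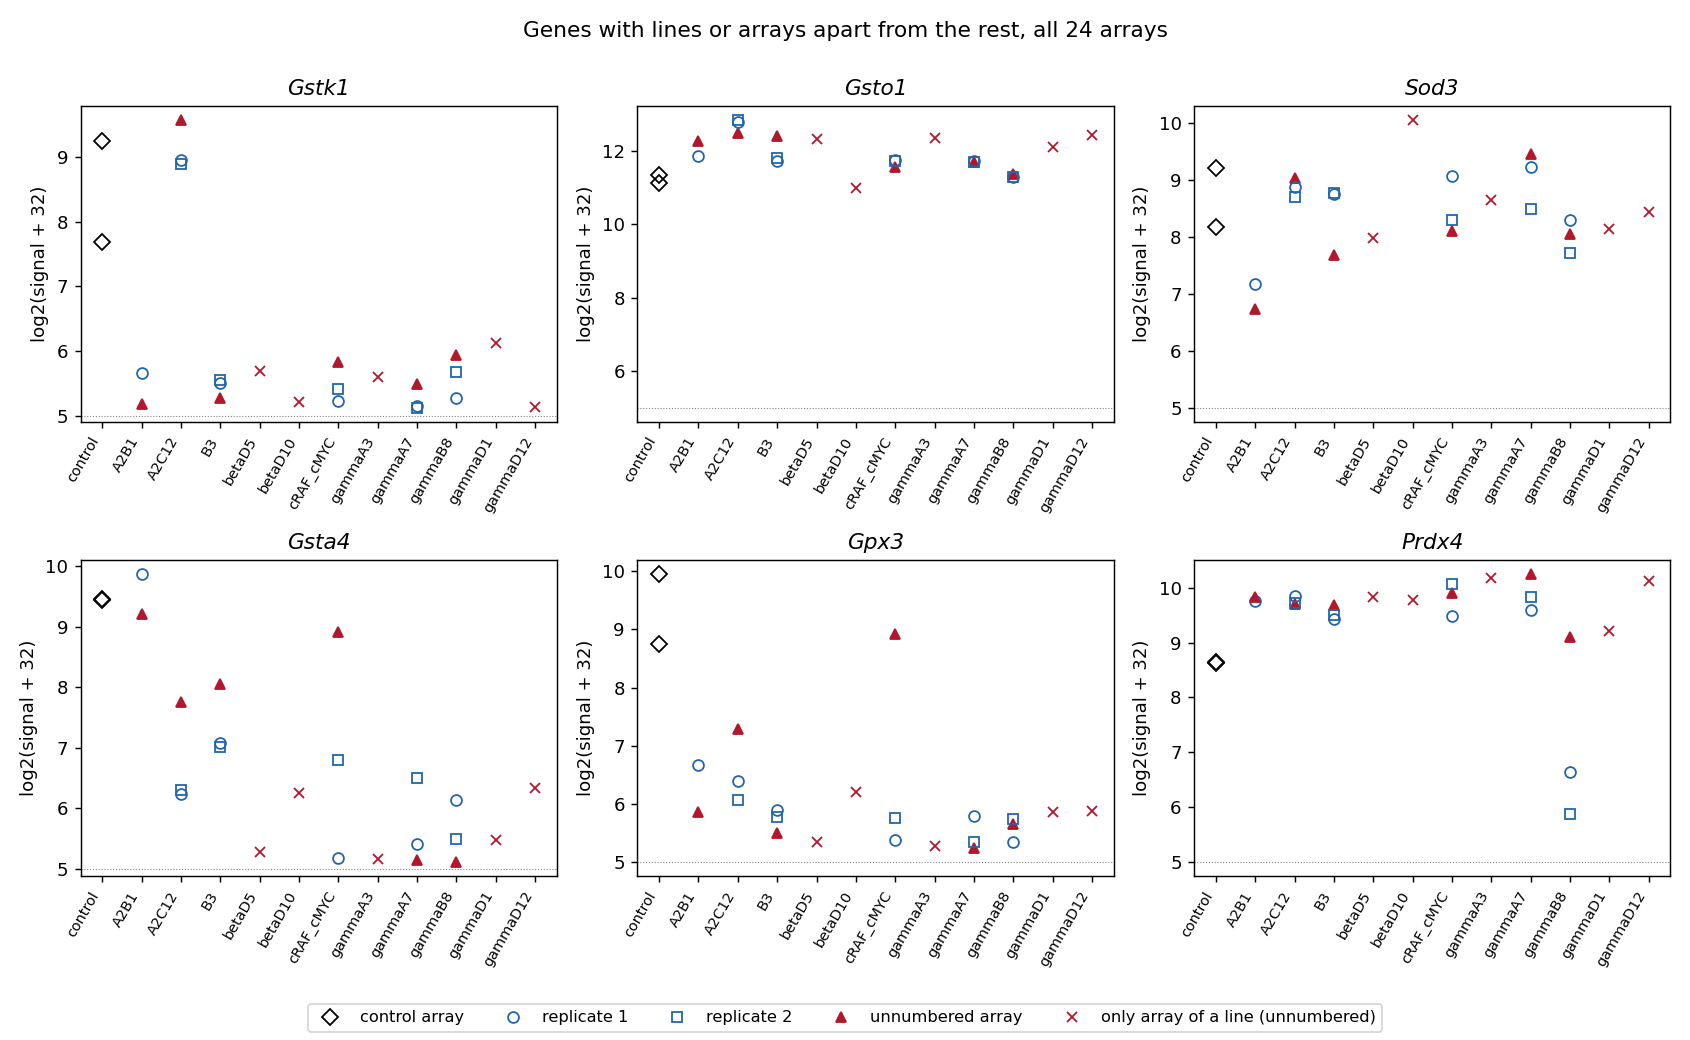
Log2(signal + 32) of Gstk1, Gsto1, Sod3, Gsta4, Gpx3 and Prdx4 (y axes) on all 24 arrays by control and line; diamonds are controls, circles and squares replicates 1 and 2, triangles unnumbered arrays of lines with repeats, crosses the only array of a line, and the dotted line is the level of a signal of 0. Gstk1 is high in all 3 arrays of A2C12, whereas Gpx3 in cRAF_cMYC and Prdx4 in gammaB8 differ between arrays of a single line.

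Among the lines some genes varied together. Over the 11 line means of log2 signals Pearson's r was 0.92 for Gstm1 and Gstm2, whose probe sets may share transcripts, 0.84 for Gpx4 and Gstk1, 0.80 for Gpx4 and Gsto1, and 0.80 for Gstm1 and Mgst1. The lowest values were -0.86 for Gpx2 and Cat and -0.85 for Prdx3 and Sod1. Gpx2 lay near the floor in all lines. These values describe 528 pairs over 11 points that share the scaling of their arrays. A2C12 had the highest mean of Gpx4, Gstk1 and Gsto1, and A2B1, whose replicate 1 stood apart, that of Gstm1, Gstm2 and Mgst1. The only array of gammaD12 gave the lowest Gpx2 and Sod1 and the highest Cat and Prdx3 of the line means. Whether single lines set these values was not tested.

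Within lines, the unnumbered arrays gave higher signals than the numbered arrays for Nqo1, Gclc, Gclm, Txnrd1 and Prdx2. In a limma fit over the 6 lines with both kinds, with the line as a term, 5 of the 33 genes passed an adjusted p under 0.05, and all 5 were higher on unnumbered arrays (15.2%). Over all tested probe sets 13.3% passed, 4.67% higher on unnumbered arrays and 8.64% lower. The sources used here do not say what the missing number stands for. Nqo1 differed most (1.26, SE 0.29, adjusted p = 0.0149) and was higher on the unnumbered array in 6 of 6 lines. In B3 it gave 645 on the unnumbered array and 98.5 and 87.8 on replicates 1 and 2, and in cRAF_cMYC 417 against 68.5 and 131. In A2C12 (461 against 474 and 371) the values overlapped, and so did those of gammaB8 (110 against 62.9 and 164).

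Gclc was also higher in 6 of 6 lines (0.92, SE 0.18, adjusted p = 0.00735). Its signal was 1240 on the unnumbered array of gammaA7 and 358 and 234 on the numbered arrays, and in B3 it was 1025 against 405 and 389. Gclm (0.50, SE 0.12, adjusted p = 0.0169), Txnrd1 (0.50, SE 0.15, adjusted p = 0.0384) and Prdx2 (0.35, SE 0.10, adjusted p = 0.0301) were higher on unnumbered arrays in 5 of 6 lines each. Gclm gave 850.2 on the unnumbered array of cRAF_cMYC against 454 and 552. The count changed with the line left out: 1 gene, Gclc, passed without B3 or without cRAF_cMYC, 2 without A2C12, 3 without gammaB8, and 7 without A2B1. The shares of all tested probe sets passing in these fits are not given here, so whether the genes or all probe sets moved cannot be told. Without cRAF_cMYC and gammaA7 together, Gclc was higher (0.79, adjusted p = 0.0327), Gpx2 was lower (-0.50, adjusted p = 0.0446) and no other gene of the 33 passed. The other 5 lines have an unnumbered array only, so the line means of these genes mix both kinds of array unequally.

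**Figure D5:**
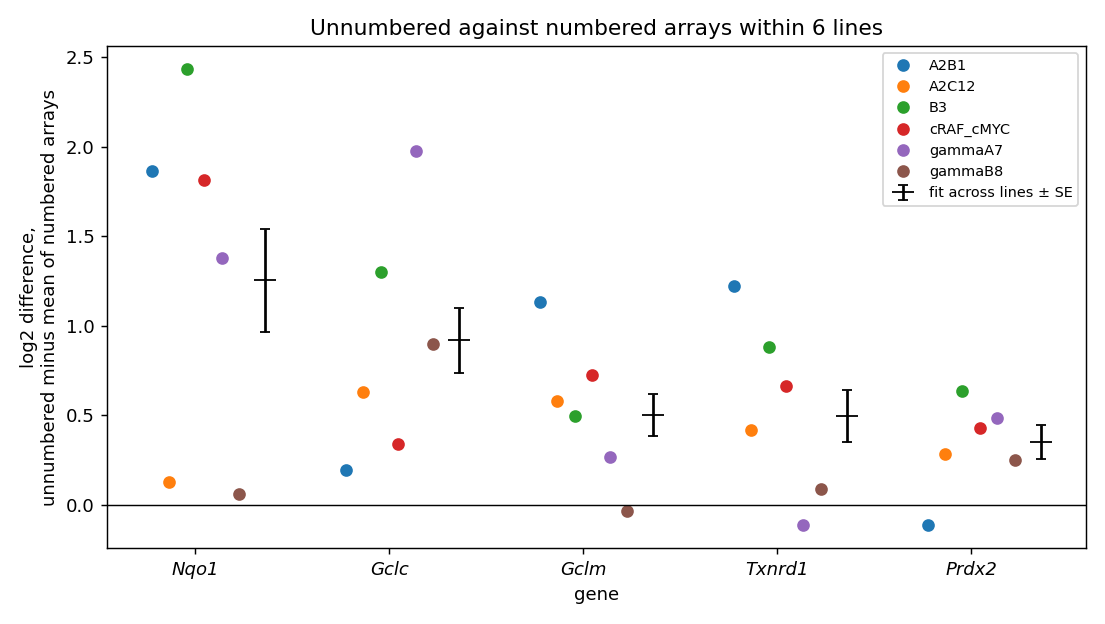
Log2 difference between the unnumbered array and the mean of the numbered arrays (y axis) of Nqo1, Gclc, Gclm, Txnrd1 and Prdx2 in 6 lines (coloured points), with the fit across lines and its SE in black. Nqo1 and Gclc lie above 0 in 6 of 6 lines, the other 3 genes in 5.

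Because Gclm, Txnrd1 and Nqo1 were higher on the same arrays and are known Nrf2 targets, their promoters are shown. Nrf2 binds the antioxidant response element, whose core was searched as TGACNNNGC, or its reverse complement GCNNNGTCA, in RefSeq windows (assembly GRCm38.p6) from 250 bases before to 50 after the transcription start. The core is in 12.4% of all 32851 windows. Of the 37 genes 32 had at least 1 window, and 7 of these (21.9%, beside 14.0% of all genes) held the core in at least 1: Gclm, Gsta3, Gstm5, Mgst1, Nfe2l2, Sod1 and Txnrd1. Gclc, Gsr, Gsta4, Gstt2 and Sod3 had no window. Capitals below mark the core, each 5' to 3' on the strand of the gene, where it is read from the other strand. In Gclm (chr3:122245307-122245606, plus strand) the core begins 134 bases before the start, in 1 of the 3 Txnrd1 windows (chr10:82858956-82859255, plus strand) 92 bases before it. The other 2 Txnrd1 windows and the Prdx2 window do not hold the core. The Nqo1 window (chr8:107403156-107403455, minus strand) does not hold these letters, which says nothing about sites outside it, and neither match is evidence of binding.
Gclm: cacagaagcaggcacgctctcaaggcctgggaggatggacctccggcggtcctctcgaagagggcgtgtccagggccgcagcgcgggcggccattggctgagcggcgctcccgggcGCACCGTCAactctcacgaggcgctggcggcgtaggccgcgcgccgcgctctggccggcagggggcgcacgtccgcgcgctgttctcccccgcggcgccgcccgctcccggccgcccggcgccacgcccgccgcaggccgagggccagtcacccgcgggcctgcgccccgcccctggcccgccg
Txnrd1: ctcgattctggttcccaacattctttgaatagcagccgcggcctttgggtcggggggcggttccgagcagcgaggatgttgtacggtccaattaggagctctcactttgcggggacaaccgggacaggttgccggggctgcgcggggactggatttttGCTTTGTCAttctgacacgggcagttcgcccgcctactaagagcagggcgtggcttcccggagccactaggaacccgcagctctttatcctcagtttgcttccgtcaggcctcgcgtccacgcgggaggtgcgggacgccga
Nqo1: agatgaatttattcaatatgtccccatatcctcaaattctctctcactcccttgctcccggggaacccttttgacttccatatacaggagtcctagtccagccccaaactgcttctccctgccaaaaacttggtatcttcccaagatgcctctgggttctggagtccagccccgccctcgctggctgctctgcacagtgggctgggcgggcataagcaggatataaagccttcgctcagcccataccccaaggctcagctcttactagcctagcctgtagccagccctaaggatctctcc

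The other genes of the pathway were taken from lists of named genes, whose counts stand beside 21.4% of all tested probe sets called lower and 16.5% higher. For short lists, such as the thiol redox and NADPH lists, counts of a few genes lie near that background. List genes that passed the filter only through the 2 control arrays had to be lower, and they are not counted apart here. Of 15 tested genes of glutathione use, uptake and export, 8 fell and 2 rose, at a median log2 difference of -1.39. The transferase-related leukotriene C4 synthase Ltc4s fell furthest (-4.00, SE 0.21), from 1635 and 738 to 39.8 ± 6.82, and the surface peptidase Anpep next (-3.18, SE 0.26), while Ggct, which degrades glutathione products inside cells, rose by 1.45 (SE 0.30) and the glutathione conjugate exporter Abcc1 by 1.11 (SE 0.31). In the lines Ltc4s and Anpep (mean 14.4) lay under the tumour array medians of 53.17 to 75.45, so the filter may have fixed the direction of both. Of 14 tested genes of other thiol redox enzymes 4 fell and 1 rose (median -0.18): the thioredoxin inhibitor Txnip fell by 2.07 (SE 0.39) and Txnl4a, which is named for a thioredoxin-like fold and works in splicing, rose by 1.68 (SE 0.25). Of 11 tested NADPH-supplying genes 3 fell and 2 rose (median -0.19), led by the isocitrate dehydrogenase Idh1 (-2.70, SE 0.25) and the mitochondrial transhydrogenase Nnt, which rose from 236 and 324 to 689 ± 127 (SE of the log2 difference 0.21).

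Of 11 further Nrf2 targets tested 3 fell, at a median of -0.59, with the aldehyde dehydrogenase Aldh3a1 at -2.97 (SE 0.57) and the carbonyl reductase Cbr1 at -1.49 (SE 0.30). Of 6 tested partners and relatives of Nrf2, at a median of 0.01, its relative Nfe2l1 (-1.37, SE 0.18) and the repressor Bach1 (-1.28, SE 0.24) fell. Of 5 tested selenium genes, which some but not all glutathione peroxidases need, 1 rose, the kinase Pstk (1.28, SE 0.19), at a median of 0.34. Of 7 tested oxidant-producing genes 4 fell at a median of -1.81, led by the phagocyte oxidase subunits Cybb (-4.06, SE 0.23) and Ncf4 (-3.02, SE 0.13), which are also macrophage genes, beside macrophage marker sums of 44880 and 25990 on the controls and at most 239 in the lines. The adjusted p of the genes named from these lists lay under 0.05 in limma, which lends no support to a fall that the filter fixed. On unnumbered arrays, 3 of 14 thiol redox genes, 1 of 11 NADPH-supplying genes and 2 of 11 Nrf2 targets were higher than on numbered arrays. Lower were 2 thiol redox genes and 1 NADPH-supplying gene, and the other lists of the pathway held none of either kind. Of all tested probe sets 4.67% were higher and 8.64% lower. Among the higher genes were Srxn1 (0.89, limma adjusted p = 0.000243), which repairs overoxidised peroxiredoxins, the carbonyl reductase Cbr3 (0.84, adjusted p = 0.000506) and malic enzyme Me1 (0.50, adjusted p = 0.00646). Lower genes included the protein disulphide isomerases Pdia4 (-1.08, adjusted p = 0.00128) and Pdia3 (-0.60, adjusted p = 0.011).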

How the data were processed

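RNA of 22 tumour line arrays and 2 control arrays was read on Affymetrix mouse arrays with 12488 probe sets, 66 of them array controls, which were left out. The deposited values are intensity signals on a linear scale, made by the authors with GCOS per the submitters' processing notes, whose version the sources used here do not give. All arrays had the same 2% trimmed mean signal, 249.9, so levels are relative to the other RNAs of an array. Detection calls were not used here. Precision is limited by how few arrays there are. Gene symbols came from the platform annotation, and 2 probe sets with several symbols, among them a symbol meeting the rule, were left out.

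Signals were transformed as log2(signal + 32) and filtered as described (7670 of 12422 probe sets). The 11 line means and the 2 control arrays entered a limma 3.58.1 fit in R 4.3.3 (11 residual degrees of freedom). The SE thus rests mostly on the spread among lines and overstates the precision where the controls lie apart. Another fit of 12 group means to 24 arrays (12 residual degrees of freedom) gave each line's contrast and the F-test, and a fit with line as a term compared unnumbered with numbered arrays. All p-values were adjusted over the 7670 probe sets. The fits were tested on simulated data. Lines against control called 89% of 4-fold and 39% of 2-fold changes, and 10 of 7470 unchanged probe sets. The simulated controls had the spread of the lines and no difference in cell mixture, so these rates may not hold for the real controls. The F-test, with 1 line of 3 arrays changed, called 88%, 27% and 8 of 7470. Genes not called may therefore still differ by 2-fold. Quantile normalization moved the median log2 difference of the tested probe sets from -0.05 to 0.18, and centring on array medians moved it to 0.49, so differences on those scales are to be read relative to these medians.

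Genes were named by rule: up to 8 called rises, 8 called falls and 8 genes past the F-test with the largest values, the regulators and core enzymes, and up to 2 called genes per further list. The remaining genes were named because they are few. The genes and lists were chosen with earlier results of these data known. Alternatives were other scalings, offsets, filters, thresholds, variance models and subsets of arrays, and some of them were chosen after seeing the data: single arrays left out, lines cRAF_cMYC and gammaA7 left out, and the settings of the comparison of unnumbered arrays.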

Additional observations from a re-analysis of the deposited data

Results flagged for a closer look

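The F-test gave 3 genes whose difference from control was not the same in all lines. For Gstk1 the adjusted p was 7.1e-05, for Gsto1 it was 0.00491 and for Sod3 it was 0.0473. Gstk1 and Gsto1 were highest in A2C12, and Sod3 was highest in betaD10, a line with 1 array. No group held between 4 and 10 arrays, so a sample far from the others of its group was not tested for.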

How the results depend on the processing

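The count of genes higher in the lines, 2, was 7 after centring on array medians, 5 with no fold threshold, 4 with a 1.5-fold threshold and 2 to 5 when single arrays or lines were left out, 5 of them without control 1. Of all 7670 tested probe sets 1265 were called higher in the main fit, 2421 after centring, 2303 with no fold threshold and 2034 with a 1.5-fold threshold. With single tumour arrays or lines left out, 1247 to 1286 were. The count of lower genes, 14, was 8 with a stricter filter, which left 27 genes to test and dropped 6 that had been called lower. Under that filter 1058 of 6730 tested probe sets were called lower, beside 1638 of 7670 in the main fit. The count was 14 to 15 when single tumour arrays or lines were left out, where 1596 to 1676 of all 7670 tested probe sets were called lower. The F-test count of 3 was 10 over 6 lines with repeat arrays (12.8% of all tested probe sets were called), 6 over the 5 lines with 3 arrays (9.13%), 14 over the numbered arrays of 5 lines (20.7%) and 13 on those arrays with the replicate block (19.9%). It was 0 to 4 when arrays or lines were left out, 0 without A2C12, where 0.209% of all tested probe sets were called. The share of all tested probe sets moved in the other fits too. It was 1.08% without replicate 2 of A2C12 and 5.36% without the unnumbered array of gammaB8, so these counts are not to be compared. The count of 5 genes past the test on unnumbered arrays was 3 after quantile normalization, 1 to 7 when a line was left out and 2 without lines cRAF_cMYC and gammaA7. For these fits the share of all tested probe sets is not given.

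The replicate block gave 3 genes higher and 15 lower, where 1297 and 1740 of all 7670 tested probe sets were. The numbers do not pair the arrays: the differences between replicates 1 and 2 correlated between lines at over 0.1 in only 1 of 10 pairs of lines, cRAF_cMYC and gammaA7 (0.816). Several uncalled genes changed sign. Gstp1 was -0.37 after quantile normalization. Centring on array medians adds the same amount to every gene. There Gclm was 0.39, Gstm2 0.36, Sod3 0.30 and Sod2 0.18, which are still below the median of all tested probe sets, 0.49. On unnumbered and single arrays, and with the replicate block, Gclm was 0.028 and Gstm2 0.047. Nqo1 was -0.18 on numbered arrays. Leaving out control 1 or control 2, Gclm was 0.45 or -0.74, Gstm2 -1.12 or 0.78, Sod3 -0.75 or 0.28, Nqo1 1.36 or -0.15 and Gstt1 -3.15 or 0.67. Calls lost were Gss (-0.73) and Gpx1 (-0.92) after centring on array medians, Mgst1 on numbered arrays, Gsr without control 1 and Gstk1 without control 2. The cause of these changes was not tested. Each line rests on 1 to 3 arrays and the control on 2, which limits every contrast, and signals near the floor have no order.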
